A study of Nothobranchius furzeri with 8 samples.

Results

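The genes igfbp1a and igfbp2a encode insulin-like growth factor (IGF) binding proteins and were followed in the brain transcriptome of sponge-29 and wild-type Nothobranchius furzeri, the short-lived turquoise killifish. They are 2 of the 23546 genes in the deposited count table, with the identifiers Nfu_g_1_002545 (igfbp1a) and Nfu_g_1_003732 (igfbp2a). Both were picked from the genes that the study lists as changed between these same fish, so their difference between the groups is given here as a description and not as a test. The 4 sponge-29 fish (genotype kif5a::miR-29sponge, 12 weeks of age, F1 transgenics) carry eGFP fused to repeated miR-29 binding sites under a zebrafish kif5aa promoter, which drives the transcript in neurons. The 4 wild-type fish (MZM-04/10p, 12 weeks of age) have no transgene, so the effect of the transgene itself cannot be told apart from that of the sequestered microRNA. RNA came from whole brain, in which fewer cells of a type and less RNA per cell cannot be told apart. Sex is not given in the sources used here.

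IGF binding proteins are secreted proteins that hold IGF ligands with high affinity, prolong their life in body fluids and control how much ligand reaches the IGF1 receptor. In mammals IGFBP1 is made mainly by the liver, and its gene is repressed by insulin and induced by fasting, glucocorticoids and FOXO transcription factors, while in zebrafish igfbp1a is also induced by hypoxia. IGFBP2 is one of the main IGF binding proteins of the mammalian brain and cerebrospinal fluid, where choroid plexus and glia make it. The RefSeq annotation of N. furzeri names 6 igfbp genes, of which igfbp1a lies next to igfbp3 and igfbp2a next to igfbp5a. The count table could be tied to igfbp1a and igfbp2a alone, and igfbp2b, igfbp3, igfbp5a and igfbp5b were not analysed here. The study lists igfbp2a among its predicted miR-29 targets, and igfbp1a is not in the copy of that list used here.

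The count totals were 18014090 to 21081878 in the sponge-29 libraries, against 21665735 to 24902251 in the wild-type libraries, without overlap (two-sided p = 0.0286 in an exact permutation test, which is the smallest value possible with 4 fish against 4). Libraries are called by their deposited numbers, 46 to 49 for sponge-29 and 42 to 45 for wild-type. Normalized counts are CPM, counts scaled to a common library size with TMM factors that correct for composition, and RPKM is the deposited value that is also scaled to gene length. All 11 neuronal genes of a marker list were detected in each group, and their summed level was 2011 to 2375 CPM in sponge-29 fish, against 1624 to 1807 CPM in wild-type fish. By log2 fold change, 9 of them were higher and 2 lower in sponge-29. These markers come from genes that the study lists as changed between these fish, so nothing on neuronal content is read from the sums.

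The level of igfbp1a was higher in the brain of every sponge-29 fish than in that of any wild-type fish. It was 64.3, 29.6, 18.1 and 14.9 CPM in sponge-29 libraries 46, 47, 48 and 49, against 5.67, 11.1, 4.10 and 7.12 CPM in wild-type libraries 42, 43, 44 and 45. The groups did not overlap, and library 46 stood far above the other sponge-29 fish. The means were 31.7 ± 22.6 CPM in the sponge-29 brains, against 6.99 ± 2.99 CPM in the wild-type ones (SD, n = 4 each). This is a 4.54-fold difference, or 2.18 ± 0.49 (SE) on the log2 scale. The lowest sponge-29 fish was 1.34-fold above the highest wild-type fish. Without library 46 the log2 fold change was 1.57, which is 2.97-fold. By log2 fold change igfbp1a ranked 35 from the top among the 19536 genes tested.

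Compared with igfbp1a, the level of igfbp2a differed less between the groups and was more even among fish. It was 51.6, 65.8, 55.8 and 62.7 CPM in sponge-29 libraries 46, 47, 48 and 49, against 43.1, 27.7, 48.4 and 40.2 CPM in wild-type libraries 42, 43, 44 and 45. The groups did not overlap here either, but sponge-29 library 46 lay only 1.07-fold above wild-type library 44. The means were 59.0 ± 6.44 CPM in the sponge-29 brains, against 39.8 ± 8.76 CPM in the wild-type ones (SD, n = 4 each). This is a 1.48-fold difference, or 0.57 ± 0.16 (SE) on the log2 scale. Wild-type library 43 was the lowest of all fish, and without it the log2 fold change was 0.43.

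**Figure D1:**
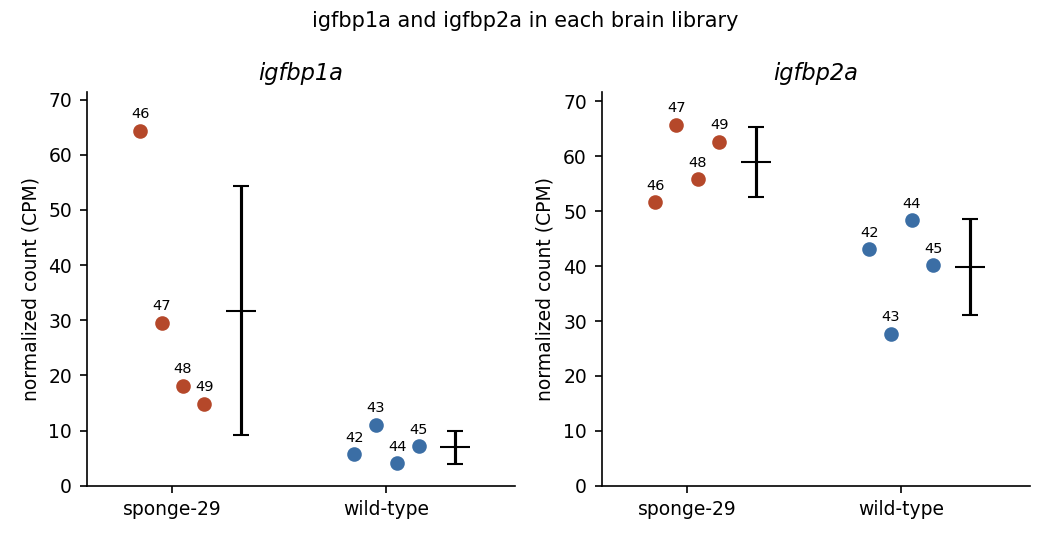
Normalized count (CPM) of igfbp1a and igfbp2a in each of the 8 brain libraries, with library numbers above the points and the mean and SD of each group as bars beside them. All sponge-29 points lie above all wild-type points for both genes, with a gap from 11.1 to 14.9 CPM for igfbp1a and from 48.4 to 51.6 CPM for igfbp2a.

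In edgeR's quasi-likelihood test over all genes, with Benjamini-Hochberg adjustment and a threshold of 0.05, 1 of the 2 genes was called, namely igfbp1a. Of all genes tested, 12.0% were called, 6.15% with a higher level in sponge-29, and 21.9% had groups that did not overlap, 11.4% with the higher level in sponge-29. Since the rule that chose the pair used this contrast, nothing is read from the count. The call of igfbp1a was lost when sponge-29 library 47 or wild-type library 42, 44 or 45 was left out, and that of igfbp2a appeared without wild-type library 43. The plot of fold changes by way of processing shows that both log2 fold changes were above 0 in all fits tried.

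**Figure D2:**
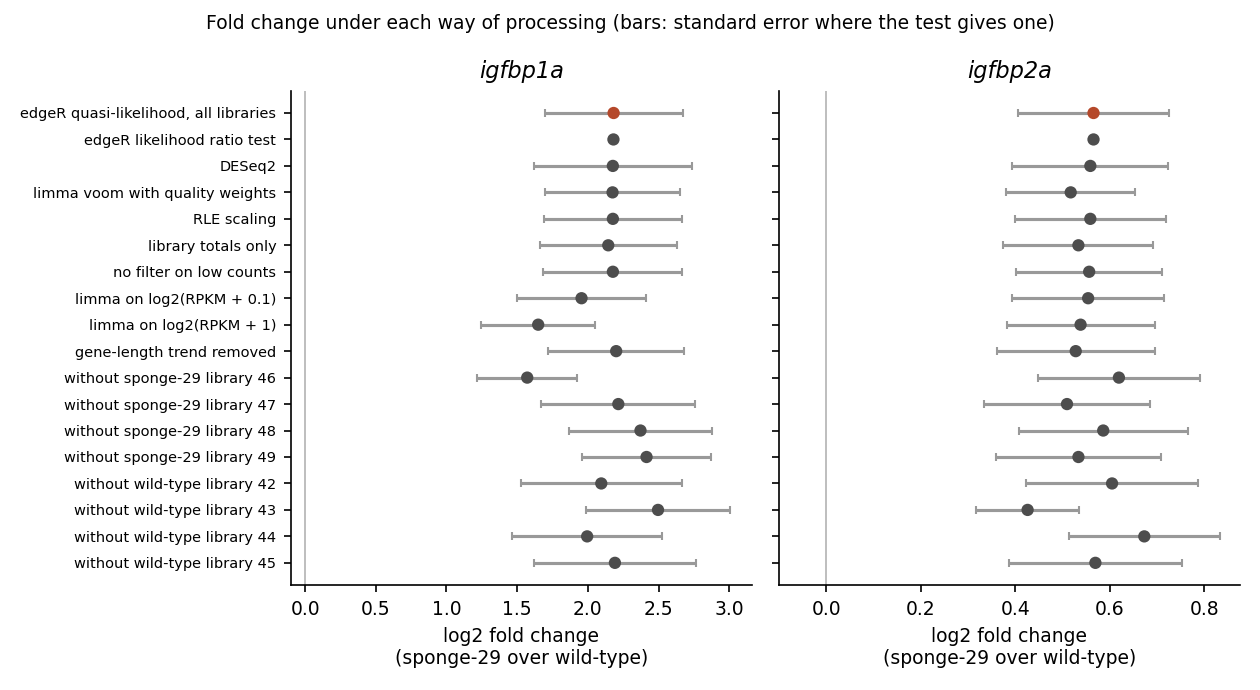
Log2 fold change of igfbp1a and igfbp2a, sponge-29 over wild-type, under each test, scaling, filter and left-out library, with the standard error as bars where the test gives one. The values run from 1.57 to 2.50 for igfbp1a and from 0.43 to 0.67 for igfbp2a, and the lowest come without sponge-29 library 46 for igfbp1a and without wild-type library 43 for igfbp2a.

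Per kilobase of gene, igfbp2a was the more abundant transcript in every brain. Its level was 39.1 ± 4.36 RPKM in the sponge-29 brains, against 27.0 ± 5.90 RPKM in the wild-type ones, and 90.1% of the genes tested had a lower mean level in sponge-29 and 85.0% in wild-type. That of igfbp1a was 11.8 ± 8.29 RPKM in the sponge-29 brains, against 2.66 ± 1.15 RPKM in the wild-type ones (SD, n = 4 each), above 65.5% of the genes tested in sponge-29 and above 26.1% in wild-type. The ratio of igfbp1a to igfbp2a in RPKM was 0.698, 0.252, 0.182 and 0.133 in sponge-29 libraries 46 to 49, against 0.0737, 0.224, 0.0475 and 0.0994 in wild-type libraries 42 to 45. Wild-type library 43 thus lay within the range of the sponge-29 fish in this ratio.

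The 2 genes also differed in how much they varied among fish of the same group. For igfbp1a the highest fish was 4.33-fold above the lowest in sponge-29 and 2.70-fold in wild-type. The SD of log2 CPM of igfbp1a was 0.94 in sponge-29 and 0.59 in wild-type, above 97.4% and 92.2% of the genes tested. For igfbp2a the highest fish was 1.27-fold above the lowest in sponge-29 and 1.75-fold in wild-type, and its SD of log2 CPM was 0.16 in sponge-29 and 0.35 in wild-type. Counting error was small beside this spread, since the lowest count of igfbp1a was 103 (a counting error of 9.85%) and that of igfbp2a was 666 (3.87%).

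The order of the fish within the groups differed between the pair. In sponge-29, igfbp1a ran from high to low in the order 46, 47, 48 and 49, and igfbp2a in the order 47, 49, 48 and 46, so that library 46 was the highest for igfbp1a and the lowest for igfbp2a while library 47 was high for both. In wild-type, the order of igfbp1a from high to low was 43, 45, 42 and 44, and that of igfbp2a was exactly the reverse. With 4 fish in a group this is a description of these libraries. Over the 8 libraries, igfbp2a ranked 2951 among the 19536 genes tested in likeness to igfbp1a, while igfbp1a ranked 18921 in likeness to igfbp2a. Both ranks rest on the same root mean square difference of log2 CPM, 1.11. This measure is not scaled for the size of a gene's differences, so neither rank is read as likeness in the order of the fish.

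The genes with levels most like those of igfbp1a were found by the root mean square difference of log2 CPM, each gene centred on its mean over the 8 libraries. ARRDC3, an alpha-arrestin that promotes the turnover of membrane receptors, ranked 1 among all genes tested with a difference of 0.31 (Nfu_g_1_008874). It had 1359, 532, 661 and 375 CPM in sponge-29 libraries 46 to 49, against 186, 290, 127 and 205 CPM in wild-type libraries 42 to 45. The related alpha-arrestin arrdc2 (Nfu_g_1_002380) ranked 2 with a difference of 0.41, and had 205, 101, 110 and 96.0 CPM in sponge-29, against 23.9, 41.2, 17.6 and 19.2 CPM in wild-type in the same order of libraries. The transporter slc16a9a (Nfu_g_1_002874), of the monocarboxylate transporter family, ranked 3, also with a difference of 0.41. Its means were 118 ± 51.9 CPM in the sponge-29 brains, against 28.9 ± 5.58 CPM in the wild-type ones (SD, n = 4 each). In ARRDC3, arrdc2 and slc16a9a, as in igfbp1a, library 46 was the highest sponge-29 fish and library 43 the highest wild-type fish. Because these genes were picked for likeness over the same libraries, this follows largely from the choice.

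The genes nearest to igfbp2a were of another kind. THEM6 (Nfu_g_1_020172), of the thioesterase superfamily, ranked 2 with a difference of 0.10, and had 83.7 ± 12.3 CPM in the sponge-29 brains, against 54.0 ± 7.99 CPM in the wild-type ones. PIGH (Nfu_g_1_012752), an enzyme subunit of the synthesis of membrane anchors, ranked 5 with a difference of 0.12. KCNJ10 (Nfu_g_1_013013), the inward rectifier potassium channel of astroglia, ranked 10 with a difference of 0.13. It had 435, 436, 415 and 413 CPM in sponge-29 libraries 46 to 49, against 342, 197, 318 and 303 CPM in wild-type libraries 42 to 45. In THEM6, PIGH and KCNJ10, as in igfbp2a, library 43 was the lowest fish of the wild-type group, which again follows largely from the way they were picked. Gene symbols were at hand for 1418 identifiers, all from lists of changed genes, so only such genes could be named here.

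**Figure D3:**
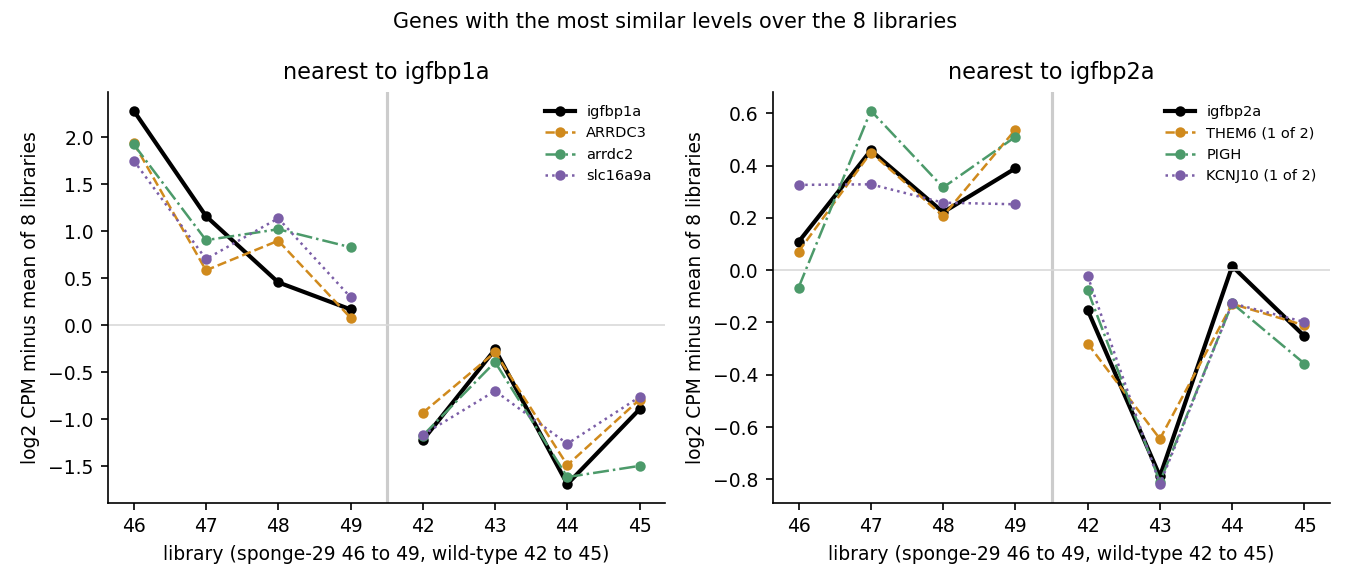
Log2 CPM minus the mean of the 8 libraries for igfbp1a and igfbp2a (black lines) and for the 3 named genes nearest to each, with sponge-29 libraries on the left and wild-type libraries on the right of the vertical line. On the left panel library 46 and library 43 are the highest of their groups in all 4 genes, and on the right panel library 43 is the lowest wild-type fish in all 4. The genes were picked for this likeness.

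Among the receptor and downstream genes of IGF signalling that could be followed, most were lower in sponge-29 brains. Other genes of the pathway could not be followed, so no direction of the pathway as a whole is read from them. Of 13 identifiers in a list of IGF and insulin signalling genes, 10 were lower and 3 higher, and edgeR's quasi-likelihood test called 9 of the lower and 1 of the higher ones, against 5.84% called lower and 6.15% called higher among all genes tested. The median log2 fold change of the list was -0.41, against -0.01 over all genes tested. These identifiers, like those of every other gene list used here, come from genes that the study lists as changed between these fish, so the direction and the number of calls are no independent evidence.

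The IGF1 receptor igf1ra, the tyrosine kinase that IGF ligands activate, has a pair of identifiers in the table. For Nfu_g_1_022046 the level was 87.7, 73.3, 80.8 and 64.9 CPM in sponge-29 libraries 46 to 49, against 101, 98.7, 100 and 106 CPM in wild-type libraries 42 to 45. For Nfu_g_1_008253 it was 28.8, 24.3, 28.1 and 23.8 CPM in sponge-29, against 37.9, 34.9, 31.8 and 41.3 CPM in wild-type. All sponge-29 fish were lower than all wild-type fish for both identifiers, as in 10.5% of all genes tested. The log2 fold changes were -0.40 ± 0.09 and -0.47 ± 0.10 (SE). Each identifier was called with all fish and in 4 of the 8 fits with a library left out. In a fit that takes out the dependence of counts on gene length, the values were -0.26 and -0.38. Only Nfu_g_1_008253 kept its call there. How reads were shared between similar gene copies is not given in the sources used here, so the split between the pair is uncertain.

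Among the signal carriers next to the receptor, log2 fold changes (± SE) were -0.44 ± 0.10 for the phosphatase ptpn11b, -0.42 ± 0.07 for sos2, which activates RAS, and -0.38 ± 0.08 for pik3cb, a catalytic subunit of PI3-kinase. These 3 genes were called and their groups did not overlap. Of all genes tested, 5.84% were called lower and 10.5% had groups that did not overlap with the lower level in sponge-29. The inhibitor of PI3-kinase, pik3ip1, was not called, with 34.7 to 58.6 CPM across the sponge-29 libraries, against 27.6 to 34.8 CPM across the wild-type ones. Of the kinases further down, sgk3 and gsk3ab were called lower, at -0.46 ± 0.13 and -0.40 ± 0.11 (SE). The groups overlapped for sgk3 and did not for gsk3ab. Each kept its call in 1 of the 8 fits with a library left out, against 5 for ptpn11b and 7 for sos2 and pik3cb. In those fits the share of all genes called ran from 2.17% to 10.8%. The brake of the mTOR complex, tsc1b, was called lower in both of its identifiers, with -0.55 (Nfu_g_1_018352) and -0.47 (Nfu_g_1_018356). With a library left out, Nfu_g_1_018352 kept its call in 1 of the 8 fits and Nfu_g_1_018356 in 7. The former also lost its call without the filter on low counts and with the dependence on gene length taken out. Whether the pair are separate genes was not settled.

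The gene called higher was eif4ebp2, a repressor of translation that mTOR inactivates. It had 42.2 to 47.1 CPM across the sponge-29 libraries, against 29.7 to 35.9 CPM across the wild-type ones, and its log2 fold change was 0.43 ± 0.08 (SE). Of the forkhead transcription factors that insulin and IGF signalling restrain, only FOXO4 and a FOXO6 copy could be followed, and neither was called. FOXO4 had 59.4, 40.4, 37.0 and 34.6 CPM in sponge-29, against 25.1, 39.1, 22.3 and 25.8 CPM in wild-type in the same order of libraries, and FOXO6 had 22.2 ± 3.59 CPM in the sponge-29 brains, against 29.6 ± 2.65 CPM in the wild-type ones. The order of the fish within each group was the same in igfbp1a, FOXO4 and eif4ebp2. Of all genes tested, 0.358% shared this order with igfbp1a. The match rests in part on near ties, with eif4ebp2 at 42.2 to 43.2 CPM in sponge-29 libraries 47 to 49. Likewise, FOXO4 had 25.1 CPM in wild-type library 42 and 25.8 CPM in library 45. Whether counting error decides these orders was not tested, and no link with igfbp1a is read from the match.

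**Figure D4:**
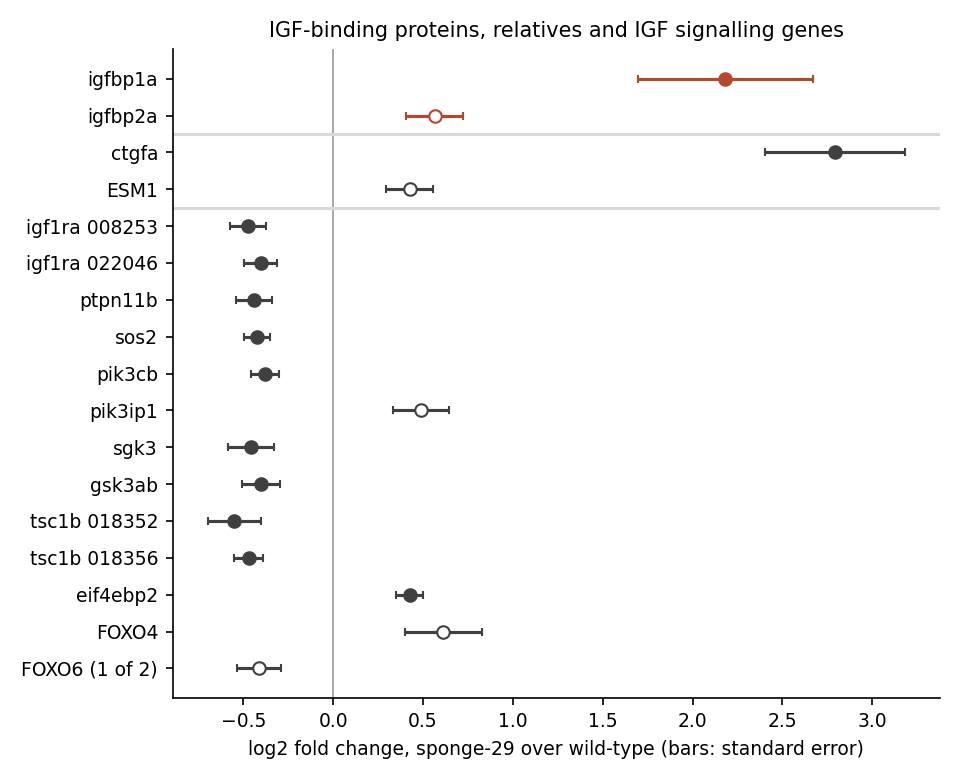
Log2 fold change of igfbp1a and igfbp2a (red), of ctgfa and ESM1, and of 13 identifiers of IGF and insulin signalling, sponge-29 over wild-type, with standard errors as bars, filled symbols for called genes and numbers where a symbol has more than 1 identifier. The signalling genes lie between -0.55 and 0.61, and 10 of the 13 lie below 0.

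Gene length went along with direction in this list, at a median of 5868 bases for its lower and 822 bases for its higher identifiers. The lower identifiers also had the longer median in the hypoxia (5811 against 921 bases), vascular (5925 against 1034.5) and neuronal lists (9608.5 against 1791) described below. Those medians rest on 5 lower identifiers in the vascular list and on 2 each in the hypoxia and neuronal lists. The liver, brain fluid, astroglia and fasting lists had 1 lower identifier each. It was longer than the median of the higher ones in each of these lists but the fasting list (2195 against 2474 bases). With so few lower identifiers, these lengths only describe the genes at hand. After a fit that takes out any dependence of counts on length in each library, 10 of the IGF and insulin signalling identifiers were still lower. In that fit, 5 of the lower and 1 of the higher ones were called. Of all genes tested it called 7.83% (972 higher and 557 lower in sponge-29). The number called in the list was 3 without wild-type library 45, 2 without sponge-29 library 47, and 5 when wild-type library 42 or sponge-29 library 49 was left out, against 10 with all fish. The share of all genes tested that was called moved as well, to 5.85% without library 42, 4.49% without 44, 2.17% without 45, 7.48% without 46, 2.23% without 47 and 5.02% without 49, against 12.0% with all fish. The length of igfbp1a (2657 bases) was close to the median of all genes tested (2654 bases), that of igfbp2a was 1489 bases, and their log2 fold changes after that fit were 2.20 and 0.53.

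Of the proteins that share the IGFBP domain without belonging to the family, ctgfa (Nfu_g_1_012746), a matricellular growth factor, had 104, 39.0, 40.1 and 32.1 CPM in sponge-29 libraries 46 to 49. In wild-type libraries 42 to 45 it had 8.21, 9.99, 5.65 and 7.21 CPM. It was called (log2 fold change 2.79 ± 0.39, SE), and libraries 46 and 43 were again the highest fish of their groups. The endothelial proteoglycan ESM1 (Nfu_g_1_006569) was not called, with 10.8 ± 1.32 CPM in the sponge-29 brains, against 8.00 ± 0.883 CPM in the wild-type ones (SD, n = 4 each).

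Among genes known to answer to fasting, FOXO factors, p53 or growth arrest, those that could be followed were mostly higher in sponge-29. Libraries 46 and 43 had the highest summed level of these genes in their groups. Of 14 identifiers, 11 were called higher and 1 lower, against 6.15% and 5.84% of all genes tested. The study lists all of them as changed between these fish, so a high share of calls was built into the list. The median log2 fold change was 0.67, against -0.01 over all genes tested. The largest differences were those of the pair of arrdc2 identifiers, with log2 fold changes of 2.66 (Nfu_g_1_002271) and 2.33 (Nfu_g_1_002380), of ARRDC3 with 1.86 and of gadd45g, a stress sensor that slows the cell cycle, with 1.57. The autophagy kinase ulk1b was called lower (log2 fold change -0.52), and irf7, known as an interferon regulator, was among those called higher (0.48). Library 46 was the highest sponge-29 fish and library 43 the highest wild-type fish in 7 of the 14, against 8.46% of all genes tested. The summed level of the list was 3408 CPM in library 46 and 2102 to 2329 CPM in the other sponge-29 fish, against 1690 CPM in library 43 and 1225 to 1406 CPM in the other wild-type fish. ARRDC3 and arrdc2 (Nfu_g_1_002380), which are counted in the 7, were named above for their likeness to igfbp1a over these libraries. ARRDC3 alone gave 1359 CPM of the sum in library 46 and 375 to 661 CPM in the other sponge-29 fish. The 7 and the sums are therefore no independent sign of a link with igfbp1a. While the share of all genes called also fell, to between 2.17% and 10.8%, the number called higher here was 8 without library 46 and 11 without library 43, but 4 without wild-type library 45, 5 without sponge-29 library 47, and 7 without wild-type library 42 or 44.

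Hypoxia-inducible genes showed smaller differences. The test called 8 of 11 identifiers higher and 1 lower, against 6.15% and 5.84% of all genes tested, and their median log2 fold change was 0.42. As these too were drawn from genes listed as changed, neither value is independent evidence. The largest differences were those of hk1, the hexokinase of brain, with -0.68, of the clock repressor bhlhe41 with 0.66 and of the coactivator regulator cited4b with 0.62. A second hexokinase, hk2, was lower too, with -0.45 and groups that did not overlap, but was not called. The secreted lipase inhibitor angptl4 was not called, with 81.6 ± 17.3 CPM in the sponge-29 brains, against 54.4 ± 14.1 CPM in the wild-type ones (SD, n = 4 each). Library 46 and library 43 were the highest of their groups in 5 of the 11, against 8.46% of all genes tested. The same held for 3 of 13 IGF and insulin signalling identifiers and 1 of 2 IGFBP-domain genes. It held for 1 of 7 vascular, 1 of 11 neuronal, 1 of 6 astroglia and 0 of 5 brain fluid identifiers. No link with igfbp1a is read from these numbers. The number called higher was, with the all-gene share at 2.17% to 10.8%, 4 without library 46 or wild-type library 44, 3 without sponge-29 library 47, 5 without sponge-29 library 49 and 1 without wild-type library 45.

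Since IGFBP1 is a liver product in mammals, genes of liver and plasma proteins were set beside it. Of 12 identifiers, 8 were called higher in sponge-29 by edgeR's quasi-likelihood test, against 6.15% of all genes tested, and the median log2 fold change was 0.52. All come from genes that the study lists as changed, so the count called higher is no independent evidence. With the all-gene share called at 2.17% to 10.8%, the count was 4 without library 46 or wild-type library 44, 5 without wild-type library 42, 3 without sponge-29 library 47, 2 without wild-type library 45, and 5 with the dependence on gene length taken out. The lipid transfer protein MTTP was the sole identifier with a lower mean, at 9.52 ± 1.78 CPM in the sponge-29 brains, against 14.6 ± 3.67 CPM in the wild-type ones (SD, n = 4 each), and was not called. No library had a level of 0 for any of them, and the summed level was 11829 to 16442 CPM in sponge-29 fish, against 6585 to 10154 CPM in wild-type fish. The most abundant was transferrin (tfa), with 7721 ± 1157 CPM in the sponge-29 brains, against 4115 ± 1194 CPM in the wild-type ones, and the bile acid transporter slc10a1 had a log2 fold change of 0.73. In this list library 46 and library 43 were the highest of their groups in 0 of the 12, against 8.46% of all genes tested. The part of such transcripts in the difference of igfbp1a was not tested.

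For igfbp2a, library 47 was the highest sponge-29 fish and library 43 the lowest wild-type fish. The same held for 4 of the 12 liver and plasma identifiers, for 1 of 5 genes of choroid plexus, meninges and brain fluid, and for 1 identifier each of the hypoxia, vascular, neuronal and astroglia lists, against 5.89% of all genes tested. No gene of these lists had the whole order of igfbp2a in both groups. The test called 2 of the 5 brain fluid genes higher and 1 lower, against 6.15% and 5.84% of all genes tested, and their median log2 fold change was 0.49. This list was also drawn from genes listed as changed, so its calls are no independent evidence. Ependymin (epd), a main protein of fish cerebrospinal fluid, was not called, with 5842, 7779, 6441 and 5455 CPM in sponge-29 libraries 46 to 49, against 4118, 1681, 4681 and 3387 CPM in wild-type libraries 42 to 45. Library 47 was the highest and library 43 the lowest of these fish in epd. The prostaglandin synthase ptgdsb had a log2 fold change of 0.65 and was not called, the secreted chaperone clu and the protease inhibitor cst3 were called higher with 0.49 and 0.41, and the barrier transporter slco1c1 was called lower with -0.62. With the share of all genes called at 2.17% to 10.8%, those called higher were 3 without library 43, 0 without wild-type library 45, and 1 without library 42, 44, 46, 47 or 49 or with the dependence on length taken out. The likelihood ratio test, DESeq2 and limma voom each called 4 higher, with 10.0%, 20.8% and 15.8% of all genes called in either direction. The summed level of the 5 genes was 6220 to 8774 CPM in sponge-29 fish, against 2271 to 5339 CPM in wild-type fish. The part of choroid plexus, meningeal or plasma transcripts in the difference of igfbp2a was not tested.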

How the data were processed

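Whole brains of 4 transgenic and 4 wild-type fish were sequenced. The authors prepared libraries with Illumina's TruSeq RNA kit, mapped single reads with Tophat 2.0.6 to the N. furzeri genome, counted them with featureCounts 1.4.3-p1 and deposited raw counts per gene. The authors also deposited RPKM values, which equal these counts divided by gene length and library total, and gene length was taken from their ratio. Rules on strand and multiple mapping are not given in the sources used here.

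Counts were analysed with R 4.3.3 and edgeR 4.0.16: filterByExpr with a minimum count of 10 kept 19536 genes, libraries were scaled by TMM, and the groups were tested by quasi-likelihood, with p-values adjusted after Benjamini-Hochberg across the whole table and a threshold of 0.05. Log2 CPM used a prior count of 2. Depth was 18014090 to 24902251 counts a library and leaves a counting error of at most 9.85% for igfbp1a. This error covers counting only. The study describes biological replicates, taken here as separate fish, and the labels add nothing on how they relate.

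Identifiers and symbols come from the study's additional files (1418 pairs), and 0 identifiers matched the RefSeq table of assembly NfurGRZ-RIMD1, which served only for gene names and neighbours. The listed fold changes and p-values were not used. The members and gene lists were chosen with earlier results of these data known. Named are both members, all IGF signalling and IGFBP-domain genes, up to 4 genes with the largest absolute log2 fold change of each other list, and the 3 nearest genes with a symbol for each member (ulk1b, irf7, hk2, cst3, flna, myl9b, gria3b and grin2ab were added after their values were seen). As alternatives, the table was also run through DESeq2 1.42.0, voom with quality weights (limma 3.58.1), the likelihood ratio test of edgeR, other scalings, no filter, limma on log2(RPKM + 0.1) and log2(RPKM + 1), removal of the length trend (natural spline with 4 degrees of freedom) and each library left out. The tests were tried on simulated data before use.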

Additional observations from a re-analysis of the deposited data

Results flagged for a closer look

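Among the 96 groups of 4 fish examined for 48 genes, 5 held a fish whose gap to its nearest neighbour as a share of the range of the group exceeded Dixon's critical value, and chance alone gives about 1 in 20 groups. In ctgfa, sponge-29 library 46 had 104 CPM, with the next fish at 40.1 CPM (0.888 of the range). In arrdc2, library 46 was again apart, with 205 CPM and the next fish at 110 CPM for Nfu_g_1_002380 (0.875), and with 22.1 CPM and the next fish at 12.3 CPM for Nfu_g_1_002271 (0.846). In ptpn11b, wild-type library 44 had 52.2 CPM and the next fish 41.3 CPM (0.847). In gsk3ab, wild-type library 45 had 47.4 CPM and the next fish 39.7 CPM (0.908). Neither igfbp1a nor igfbp2a met this limit in either group, although library 46 was the highest fish for igfbp1a with 64.3 CPM. The cause of the position of library 46 was not tested.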

How the results depend on the processing

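Under all alternatives igfbp1a and igfbp2a kept a positive log2 fold change, from 1.65 to 2.20 and from 0.52 to 0.57 with all fish, and from 1.57 to 2.50 and from 0.43 to 0.67 with 1 library left out in turn. Of the 2 genes, 2 were called by edgeR's likelihood ratio test, by DESeq2 and by limma voom, against 1 in the quasi-likelihood test, and between 0 and 2 with 1 library left out. Of the 13 IGF and insulin signalling identifiers, 10 were called, 6 with the gene-length trend removed, and between 2 and 10 with 1 library left out. Over all genes, 2341 were called (1201 higher and 1140 lower in sponge-29), 3784 by DESeq2, 1529 with the length trend removed, and from 427 without wild-type library 45 to 2125 without wild-type library 43. Scaling by library totals alone gave 886 higher and 1428 lower and removal of the length trend 972 higher and 557 lower, and the cause was not tested. For 46 other named identifiers, none of 782 recomputed log2 fold changes changed sign, 129 lost the call and 41 gained it. No paired analysis was made because the labels give no pairing of fish between the groups.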

Other observations

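Among cell types other than neurons that whole brain holds, the astroglia and oligodendrocyte genes that could be followed were mostly higher in sponge-29. Of 6 identifiers, 5 were called higher in edgeR's quasi-likelihood test, against 6.15% of all genes tested. Their median log2 fold change was 0.50, and that of all genes tested was -0.01. Here too the identifiers come from genes that the study lists as changed, so the calls are no independent evidence. The glial transcription factor sox9a had 29.4 ± 1.64 CPM in the sponge-29 brains, against 19.6 ± 1.48 CPM in the wild-type ones, and the myelin gene pmp22a 14.5 ± 2.54 CPM in the sponge-29 brains, against 9.63 ± 1.34 CPM in the wild-type ones (SD, n = 4 each). The matrix proteoglycan bcan was not called lower by this test, with 455 ± 87.1 CPM in the sponge-29 brains, against 648 ± 107 CPM in the wild-type ones, and 3 of 9 other ways of processing called it. Called higher were 2 with the gene-length trend removed and from 1 (without library 45, 46, 47 or 49) to 4 (without library 43) with 1 library left out, while the share of all genes called in either direction ran from 2.17% to 10.8%, against 12.0% with all fish. The summed level of the 6 identifiers overlapped between the groups, with 934 to 1124 CPM in sponge-29 fish, against 820 to 1182 CPM in wild-type fish.

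The vascular and mural cell genes that could be followed were mostly lower. Of 7 identifiers, 3 were called lower, against 5.84% of all genes tested, their median log2 fold change was -0.52, and their summed level was 278 to 300.5 CPM in sponge-29 fish, against 360 to 377 CPM in wild-type fish. The endothelial phosphatase ptprb (Nfu_g_1_008326) had a log2 fold change of -0.75, the endothelial adhesion receptor eltd1 of -0.52 and the actin crosslinker flna of -0.37. A more abundant ptprb identifier (Nfu_g_1_011693) had -0.56, was not called and had groups that overlapped. Its level was 44.3 ± 7.06 CPM in the sponge-29 brains, against 65.4 ± 14.1 CPM in the wild-type ones. The endothelial growth factor PDGFB was not called, with 12.3 ± 1.16 CPM in the sponge-29 brains, against 18.4 ± 4.57 CPM in the wild-type ones (SD, n = 4 each). In the other direction, and not called, were myl9b, a myosin light chain of smooth muscle, with a log2 fold change of 0.46 and groups that overlapped, and ESM1 with a log2 fold change of 0.43 and groups that did not overlap. With the gene-length trend removed, 1 of the 7 was called lower, while 7.83% of all genes tested were called in either direction. DESeq2 and limma voom called 5 lower, with 20.8% and 15.8% of all genes called. With 1 library left out the count ran from 0 without library 44, 45, 47 or 48 to 4 without library 43. The share of all genes called then ran from 2.17% to 10.8%, against 12.0% with all fish. Of 11 neuronal identifiers, 8 were called higher and 2 lower, against 6.15% and 5.84% of all genes tested. Those called higher were led by the transcription factor neurod (log2 fold change 1.21) and the synuclein sncga (0.78), and those called lower were the glutamate receptor genes gria3b (-0.45) and grin2ab (-0.36). Only 3 were called higher without library 45 or 47, where 2.17% and 2.23% of all genes tested were called in either direction. The vascular and neuronal identifiers also come from genes that the study lists as changed between these fish. Their calls are therefore no independent evidence. The part of any of these cell types in the differences of igfbp1a and igfbp2a was not tested.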
